A study of Mus musculus with 8 samples.

Results

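The genes described here are Trp53, which encodes the tumour suppressor p53, and 31 genes that are reported targets of p53 or restrain it. They were chosen by symbol from a list of 32. All 32 symbols were found among the 24421 rows of a table of raw read counts from KPCY cells, a male mouse line of pancreatic cancer cells. A lentivirus had delivered either an inhibitor against miR-27a-3p (knockdown cells, 4 libraries) or a scrambled control sequence (scrambled cells, 4 libraries). Both lines had been selected with 2 µg/mL puromycin for 7 days and were taken for mRNA sequencing 24 hours after seeding. Each group is 1 stable line. Although its libraries are labelled as biological replicates, p-values therefore reflect how far cultures or libraries of that line differ, which may be technical, and not independent transductions. The labels do not state which Trp53 allele these cells carry, and a count per gene symbol does not separate wild-type from altered Trp53 transcripts.

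Of the 32 genes, 30 passed the filter on low counts, and of these 7 were higher (23.3%), 8 were lower (26.7%) and 15 were not called in knockdown cells. These shares are close to those of all 11797 tested genes, of which 23.8% were higher and 24.1% lower. Cdkn1a, the p21 inhibitor of cyclin-dependent kinases, was 1.52-fold lower and Gadd45a, a stress sensor induced by DNA damage, was 1.44-fold higher. These were the only 2 genes of the list that also passed a test against a fold of 1.2. Trp53 itself was 1.12-fold lower. Mdm2, the main ubiquitin ligase of p53 and its best-known target, did not pass the test. Fas and Eda2r, a pair of p53-induced receptors of the TNF receptor family, were almost unread in both lines.

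p53 is a transcription factor that is held low in unstressed cells by Mdm2 and Mdm4, and that is stabilised by DNA damage, oncogenes and other stress. It then binds paired half-sites near its target genes and switches on cell-cycle arrest, DNA repair, metabolic change or apoptosis, and it also switches on Mdm2, which closes a feedback loop.

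The promoters of the list were searched for the DNA element that p53 binds, since this sequence is what its direct targets share. RefSeq gave windows from 250 bases before to 50 bases after an annotated start for 25 of the 32 genes (GRCm38.p6). A perfect match to the p53 half-site consensus, a 10-base motif that reads the same on both strands, lay in the windows of 13 of these 25 genes (52.0%), against 9.55% of 27025 genes with a window. A pair of half-sites with an intact core in each, at most 2 mismatches in all and at most 13 bases between them lay in 5 of the 25 (20%), against 2.47% of all genes. The list was put together from known p53 targets, so these shares describe how it was chosen, and a match is not a measured binding site. The 5 elements are shown because they belong to the gene with the largest difference and to 4 genes with small ones, with the 4-base core of each half-site in capitals.
Cdkn1a (chr17:29090906-29090937, plus strand, 73 bases before the RefSeq start, 0 mismatches, 12 bases between half-sites): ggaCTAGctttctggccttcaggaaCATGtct
Gtse1 (chr15:85859945-85859964, plus strand, 1 mismatch): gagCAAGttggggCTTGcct
Rps27l (chr9:66946296-66946315, plus strand, 1 mismatch): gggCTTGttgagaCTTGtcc
Ckap2 (chr8:22186003-22186022, minus strand, 2 mismatches): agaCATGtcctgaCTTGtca
Sesn1 (chr10:41887253-41887275, plus strand, 2 mismatches, 3 bases between half-sites): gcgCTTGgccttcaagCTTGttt
The 13 genes with a half-site in the window were all tested, and 2 were higher, 3 lower and 8 not called (median log2 fold change −0.04). Of the 12 with a window but no half-site 10 were tested, and 2 were higher, 4 lower and 4 not called (median −0.08). The 7 genes without a window were all tested, and 3 were higher, 1 lower and 3 not called (median 0.09). Of all tested genes 47.9% were called, 23.8% higher and 24.1% lower. Sites further away, such as those in introns, were not searched. The Sesn1 element lies before an annotated start inside the gene (chr10:41809935-41908424). Counts per gene do not show whether these cells use that start.

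The inhibited microRNA was also set beside the list, since its sites in 3′ UTRs are where it pairs with transcripts. Its mature sequence in RefSeq is shown with the seed, bases 2 to 8, in capitals.
mmu-miR-27a-3p: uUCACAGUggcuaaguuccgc
In the longest GENCODE M21 3′ UTR of each gene, the full 8-base seed match was found in 3 of the 32 genes (9.38%), against 5.89% of 20968 genes. An 8-base or 7-base match was found in 6 (18.8%), against 15.9%, in UTRs with a median length of 910.5 bases for the list and 954.0 for all genes. The sites in 5 genes that were tested are shown with the match in capitals, read along the transcript.
Sesn2 (chr4:132492414-132492443, minus strand): cagagcaaacaACTGTGAAttctgatgtcc
Ccng1 (chr11:40749533-40749562, minus strand): tgtgaaataaaACTGTGAAccttcattcta
Zmat3 (chr3:32334992-32335021, minus strand): caaaccaatcaACTGTGAAttgtgaaattg
Mdm4 (chr1:132988327-132988356, minus strand): tggctttagatACTGTGActgttattttcc
Tnfrsf10b, first site (chr14:69783408-69783437, plus strand): tacctttagatACTGTGAtagggatttcta
Tnfrsf10b, second site (chr14:69784113-69784142, plus strand): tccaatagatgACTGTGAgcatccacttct
Of these 5 genes, Sesn2 and Tnfrsf10b were higher and Mdm4 was lower in knockdown cells, while Ccng1 and Zmat3 were not called. Of the 25 tested genes of the list without a match, 5 were higher, 7 lower and 13 not called. Among all tested genes 23.8% were higher and 24.1% lower. The sixth gene with a match, Eda2r, was not tested. A match is a sequence description only. The related mmu-miR-27b-3p has the same seed, so each site shown matches it as well.

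Library totals were 19165513 to 21735023 counts in knockdown and 20021056 to 23542275 in scrambled libraries. Levels below are counts scaled to TMM-adjusted library totals (CPM). Each gene was tested with edgeR's quasi-likelihood test, with the scrambled cells as the base of every fold change, and was called at a Benjamini-Hochberg adjusted p under 0.05 over all 11797 genes tested. Scrambled replicate 2 stood apart from the other scrambled libraries, with 5.03 to 5.20 as its chi-square averaged over genes, while pairs of the other three gave 1.79 to 2.31. The 7 pancreatic epithelial markers summed to 11367 to 11692 CPM in knockdown and 10706 to 11676 CPM in scrambled libraries, most of it keratins, and 3 of these 7 markers were called higher and 2 lower. Cdh1, the E-cadherin of epithelial junctions, was called higher at 853 ± 4.03 CPM in knockdown and 729 ± 17.3 CPM in scrambled cells. Sox9, a ductal transcription factor, was called lower at 68.7 ± 4.44 CPM in knockdown and 81.8 ± 1.86 CPM in scrambled cells. Epcam, another epithelial marker, stood at 5.62 ± 1.16 CPM in knockdown and 7.15 ± 1.80 CPM in scrambled cells (SD, n = 4). It was not called (adjusted p = 0.0718). The 7 fibroblast markers summed to 0.725 to 1.38 CPM in knockdown and 0.943 to 1.41 CPM in scrambled libraries, with Col1a2, Dcn, Lum and Pdgfrb at 0 in all 8. The 6 leukocyte markers summed to 2.76 to 4.40 CPM against 3.69 to 4.08 CPM, most of it Cd68, with Lyz2 at 0. The 4 endothelial markers summed to 0.182 to 0.665 CPM in knockdown and 0.340 to 1.03 CPM in scrambled libraries.

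Per kilobase of exon, which allows levels to be compared between genes, the list spread over a wide range in both lines. Trp53 stood at 137 CPM per kb in knockdown and 154 CPM per kb in scrambled cells, at percentile 97.1 of the tested genes in the scrambled cells. Rps27l, a ribosomal protein-like p53 target, was at 163 against 170 CPM per kb and Perp, a desmosome and apoptosis protein, at 93.8 against 107 CPM per kb. These 3 genes stood well above the rest of the list. Ei24, Ckap2, Ccng1, Sertad1, Tnfrsf10b and Gtse1 followed at 23.2 to 32.8 CPM per kb in scrambled cells.

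At the other end stood Cdkn1a and several other p53 targets. Cdkn1a was at 1.93 CPM per kb in knockdown and 2.93 CPM per kb in scrambled cells, percentile 23.0 of the tested genes. Sesn1, Sfn and Trp53inp1 were lower still in scrambled cells, at 2.78, 1.87 and 1.77 CPM per kb. In scrambled cells 12 of the 32 genes were above the median of tested genes, 10.47 CPM per kb, and 7 were at or below percentile 25. Mdm2 was at 17.6 CPM per kb in knockdown and 18.1 CPM per kb in scrambled cells, percentile 65.3. Exon lengths are those of all basic GENCODE M21 transcripts of a gene together, so genes with long alternative exons, such as Mdm4 at 10859 bases, come out low on this scale.

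**Figure D1:**
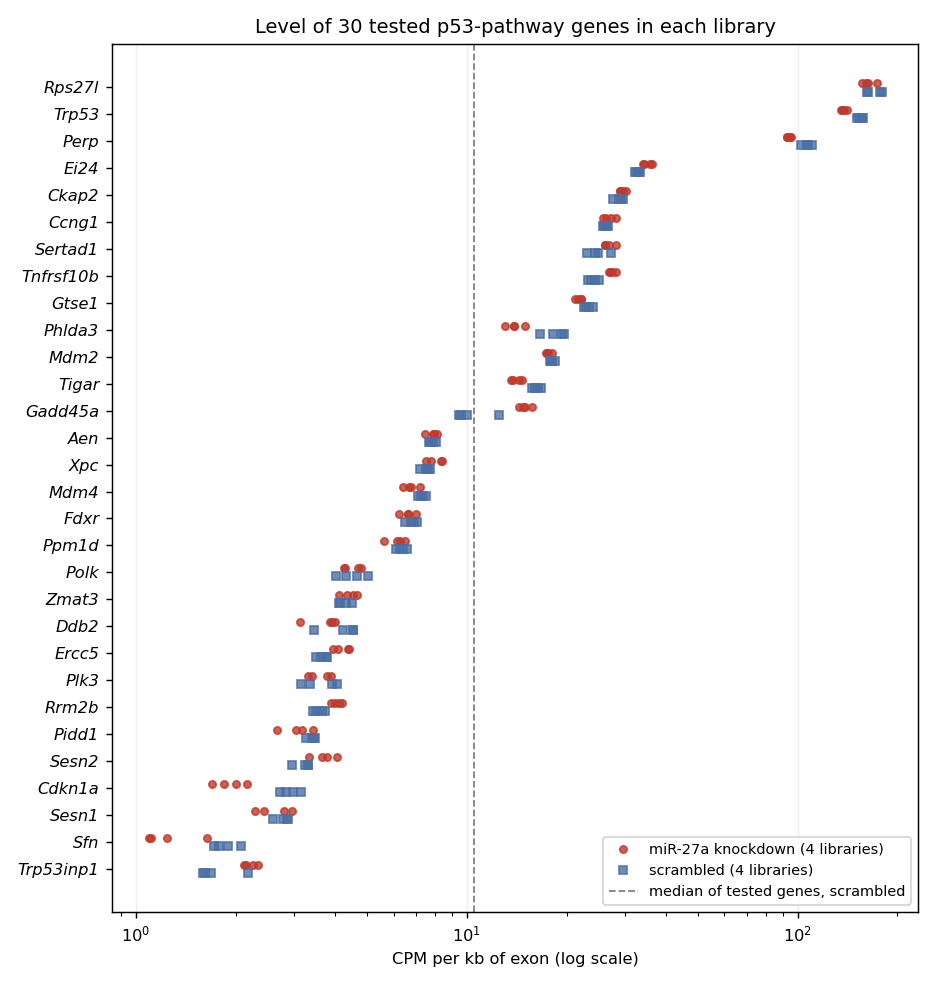
Level of the 30 tested genes in CPM per kb of exon on a log axis, with 1 point per library (circles, knockdown; squares, scrambled), ordered by the scrambled mean. Rps27l, Trp53 and Perp lie about 1 decade above the dashed median of tested genes (10.47), while Cdkn1a, Sesn1, Sfn and Trp53inp1 lie at the bottom.

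Fas, the CD95 death receptor, had 0 counts in each knockdown library and 1, 2, 0 and 0 counts in scrambled replicates 1 to 4. Eda2r, a TNF-receptor family member that binds ectodysplasin A2, had 0 counts in each knockdown library and 0, 0, 1 and 1 counts in scrambled replicates 1 to 4. At these depths a library without a read still allows 3 counts, or 0.137 to 0.155 CPM in knockdown and 0.129 to 0.151 CPM in scrambled libraries, for counting error only. Both genes were at or under this limit in all 8 libraries, so no fold change is given and they were not tested.

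In the comparison between the lines, the share of the list that was called was close to that of the transcriptome as a whole. Of the 30 tested genes 50% were called, 23.3% higher and 26.7% lower, while 47.9% of all tested genes were called, 23.8% higher and 24.1% lower. The groups did not overlap in CPM for 13 of the 30 (43.3%), against 42.2% of all tested genes. A call with an absolute log2 fold change of at least 0.3 was made for 5 of the 30 (16.7%), against 17% of all tested genes. The median log2 fold change was −0.03 over the list and 0.00 over all tested genes. These shares do not set the list apart from other genes, and what follows describes single members. In bulk RNA, fewer cells expressing a gene and less RNA per cell cannot be told apart. The count of higher genes of the list was 4 without knockdown replicate 1, 2 or 4, each left out in turn. Over all tested genes the count of higher genes was 2564, 2557 and 2575 in these settings, against 2804 with all libraries.

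**Figure D2:**
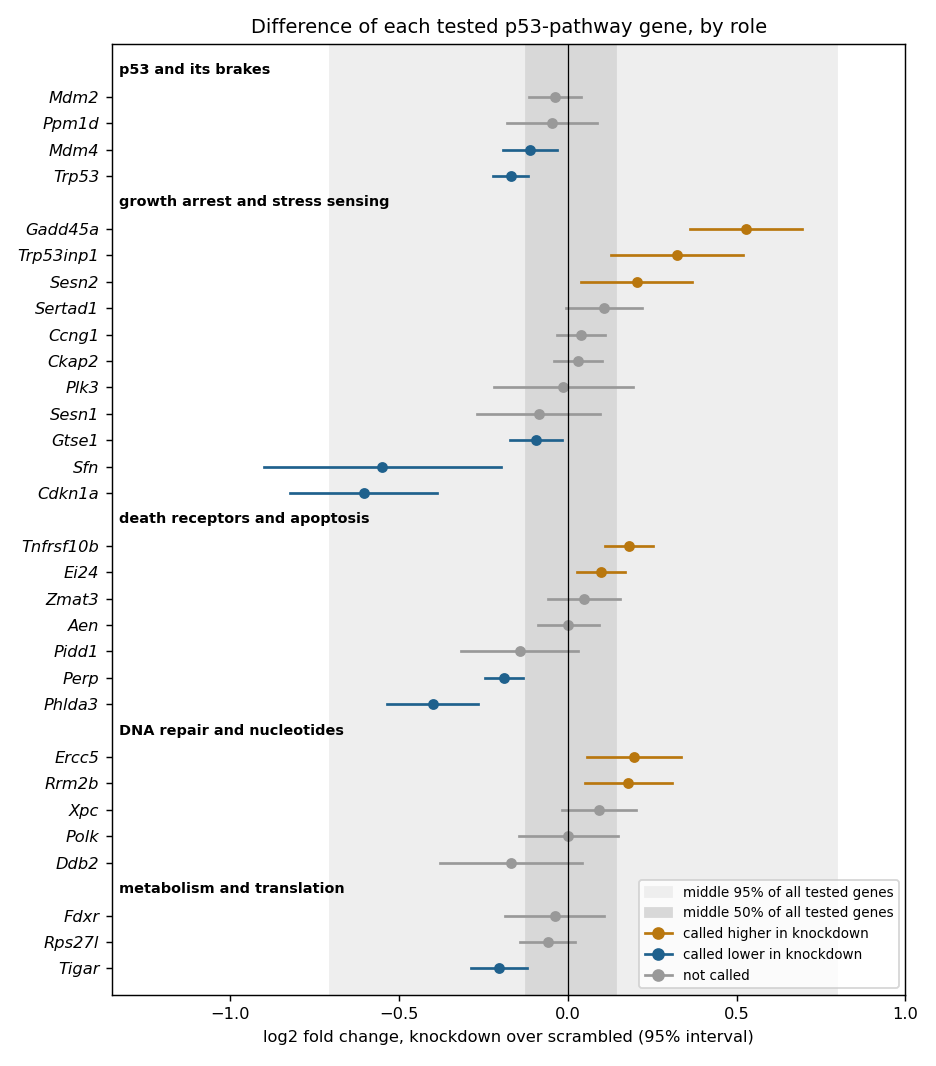
Log2 fold change of each of the 30 tested genes, knockdown over scrambled, with its 95% interval, grouped by role. Shaded bands show the middle 50% (−0.13 to 0.14) and 95% (−0.70 to 0.80) of all 11797 tested genes. Only Cdkn1a, Sfn, Phlda3, Gadd45a and Trp53inp1 were called with an absolute log2 fold change of at least 0.3, and all 5 lie inside the wider band.

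Of p53 and its brakes, Trp53 and Mdm4 fell in knockdown cells and neither of the other brakes was called, where 24.1% of all tested genes were lower. Trp53 (chr11:69580359-69591873, plus strand, GRCm38) had 263, 254, 252 and 257 CPM in knockdown replicates 1 to 4, against 295, 292, 286 and 282 CPM in scrambled replicates 1 to 4. All 4 knockdown libraries were below all 4 scrambled ones. The log2 fold change was −0.17 (SE 0.0245, adjusted p = 5.80e-06), a difference that no left-out library moved beyond −0.18 to −0.16. The annotation holds a processed pseudogene of Trp53 and one of Mdm4 that have no rows of their own among the counts. Whether reads from them entered the counts of Trp53 and Mdm4 cannot be told.

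Mdm4, the Mdm2 relative that binds p53 and blocks its activity, had 78.4, 72.7, 69.4 and 73.7 CPM in knockdown replicates and 77.2, 80.1, 78.9 and 81.6 CPM in scrambled replicates. Knockdown replicate 1 lay among the scrambled libraries and the other three lay below them. Mdm4 fell by 0.11 on the log2 scale (adjusted p = 0.0184), with an adjusted p of 0.0862 without knockdown replicate 3 0.0573 without scrambled replicate 4 and 0.0652 with library totals in place of TMM. Mdm2 had 56.8, 54.5, 54.7 and 55.5 CPM in knockdown replicates and 56.7, 58.1, 56.1 and 56.5 CPM in scrambled replicates. The groups overlapped, and the 95% interval of the fold ran from 0.923 to 1.03 (adjusted p = 0.423). Ppm1d, the Wip1 phosphatase that switches off p53 signalling, had 17.9, 18.9, 18.2 and 16.3 CPM in knockdown replicates and 18.2, 19.1, 17.7 and 18.6 CPM in scrambled replicates. Its groups also overlapped, with a fold interval of 0.883 to 1.06 (adjusted p = 0.583).

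**Figure D3:**
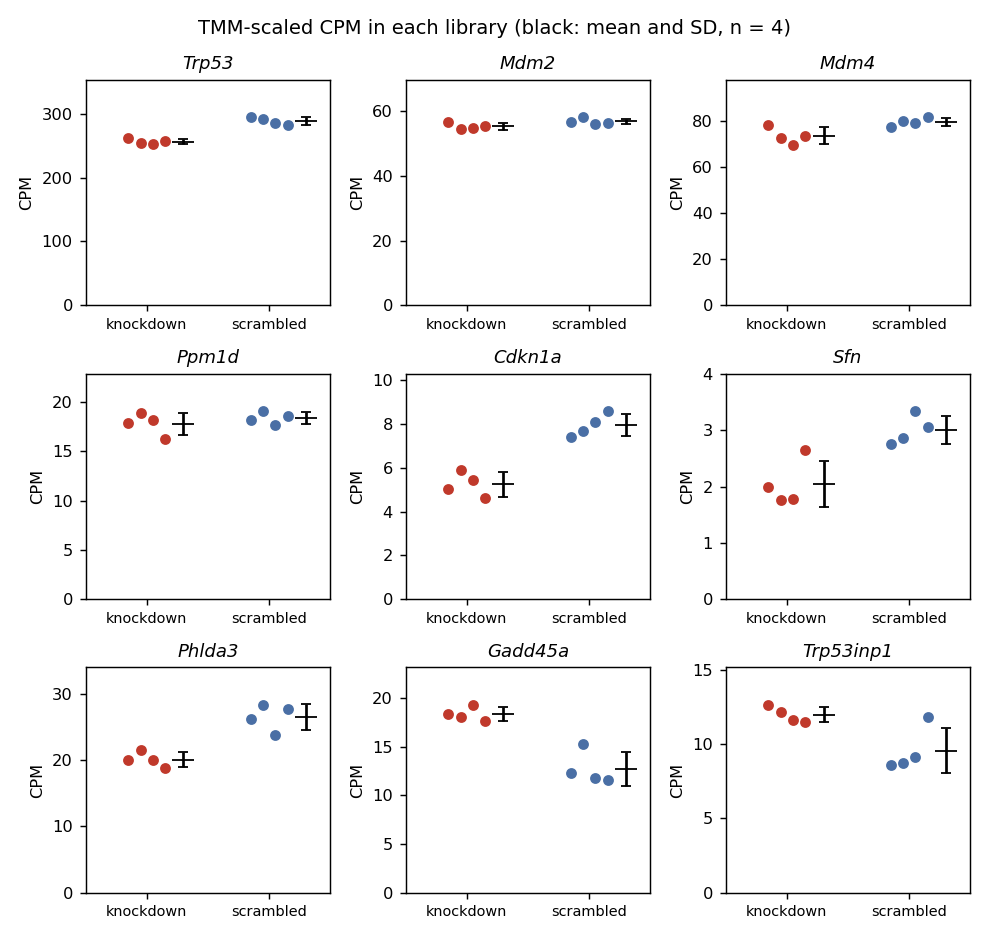
CPM in each library for Trp53, the brakes Mdm2, Mdm4 and Ppm1d, and the 5 called genes with an absolute log2 fold change of at least 0.3, on axes that start at 0, with the knockdown left of the scrambled libraries. Black bars give the mean and SD of 4 libraries. Groups are separate for Trp53, Cdkn1a, Sfn, Phlda3 and Gadd45a and overlap for Mdm2, Mdm4, Ppm1d and Trp53inp1.

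Among 11 genes of growth arrest and stress sensing 3 rose, 3 fell and 5 were not called, shares near the 23.8% higher and 24.1% lower of all tested genes. Cdkn1a (chr17:29090976-29100727, plus strand) had 5.01, 5.90, 5.46 and 4.60 CPM in knockdown replicates 1 to 4, against 7.43, 7.70, 8.10 and 8.59 CPM in scrambled replicates 1 to 4. The highest knockdown library was below the lowest scrambled one. These levels rest on 98 to 114 counts per knockdown library and 153 to 189 counts per scrambled library. Cdkn1a fell by 0.60 on the log2 scale (SE 0.105, adjusted p = 5.22e-05). It shares 273 exon bases with a tentative transcript model on the opposite strand.

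Sfn, the 14-3-3 sigma protein that holds cells in G2, had 2.00, 1.76, 1.79 and 2.64 CPM in knockdown replicates and 2.77, 2.87, 3.34 and 3.06 CPM in scrambled replicates. Knockdown replicate 4 came close to the scrambled range without reaching it. Sfn fell by 0.55 on the log2 scale (SE 0.169, adjusted p = 0.0101) on only 34 to 58 counts per knockdown library and 57 to 78 counts per scrambled library. Gtse1, which binds p53 in G2 and lowers its activity, stood at 59.7 ± 1.18 CPM in knockdown and 63.7 ± 1.82 CPM in scrambled cells (SD, n = 4), in groups that did not overlap. Its log2 fold change of −0.09 was called (adjusted p = 0.0422). The call was lost without any one of the libraries except scrambled replicate 4, with an adjusted p of up to 0.119 (without knockdown replicate 4).

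Gadd45a (chr6:67035096-67037457, minus strand) had 18.4, 18.01, 19.3 and 17.6 CPM in knockdown replicates 1 to 4, against 12.3, 15.3, 11.7 and 11.6 CPM in scrambled replicates 1 to 4. All knockdown libraries were above all scrambled ones, and the highest scrambled value was that of scrambled replicate 2, the library that stood apart. Gadd45a rose by 0.53 on the log2 scale (SE 0.0805, adjusted p = 1.11e-05), and by 0.63 without that library. It shares 337 exon bases with a noncoding transcript on the opposite strand. Cdkn1a and Gadd45a were the 2 list members, 1 lower and 1 higher, still called in a test against a fold of 1.2 (adjusted p = 0.00538 and 0.00506), which 1107 genes in all passed.

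Trp53inp1, a p53-induced nuclear protein that promotes autophagy and cell death, had 12.6, 12.2, 11.6 and 11.5 CPM in knockdown replicates and 8.59, 8.76, 9.13 and 11.8 CPM in scrambled replicates. Scrambled replicate 4 lay within the knockdown range and the other scrambled libraries lay below it. Trp53inp1 rose by 0.32 on the log2 scale (SE 0.0941, adjusted p = 0.00682), and by 0.44 without scrambled replicate 4. Sesn2, a leucine sensor and inhibitor of mTORC1, stood at 12.8 ± 1.01 CPM in knockdown and 11.1 ± 0.592 CPM in scrambled cells (SD, n = 4) and was called higher at a log2 fold change of 0.20 (adjusted p = 0.0371). The groups did not overlap. Its adjusted p was 0.131 without knockdown replicate 2 and 0.0855 without scrambled replicate 2, and the call was also lost without knockdown replicate 1 (0.0587), knockdown replicate 4 (0.0805) or scrambled replicate 4 (0.0567). Its relative Sesn1 was at 10.4 ± 1.24 CPM in knockdown and 11.01 ± 0.524 CPM in scrambled cells (adjusted p = 0.442).

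The remaining arrest and stress genes were not called. Ccng1, the cyclin G1 that recruits a phosphatase to Mdm2, was at 94.5 ± 3.79 CPM in knockdown and 92.0 ± 1.52 CPM in scrambled cells (fold interval 0.979 to 1.08). Ckap2, a mitotic spindle protein on chromosome 8, was at 76.3 ± 1.55 against 74.7 ± 2.07 CPM, a log2 fold change of 0.03 where the median of 648 tested genes of that chromosome was 0.21. Plk3, a stress-activated polo kinase with 84 exon bases shared with Tctex1d4 on the other strand, was at 8.54 ± 0.679 against 8.59 ± 1.03 CPM. Sertad1, a CDK4-binding coactivator, was at 33.1 ± 1.19 against 30.7 ± 2.16 CPM (adjusted p = 0.110), and at 0.15 on the log2 scale with an adjusted p of 0.0146 without scrambled replicate 2.

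Of 7 tested death and survival genes 2 were higher, 2 lower and 3 not called, again near the 23.8% and 24.1% of all tested genes. Phlda3 (chr1:135766119-135769136, plus strand), which competes with Akt for membrane lipids and so restrains it, had 19.95, 21.5, 19.96 and 18.7 CPM in knockdown replicates 1 to 4, against 26.1, 28.3, 23.8 and 27.7 CPM in scrambled replicates 1 to 4. The groups were separate. Phlda3 fell by 0.40 on the log2 scale (SE 0.0644, adjusted p = 2.21e-05). Perp had 186, 184.5, 181 and 181 CPM in knockdown replicates, against 200.2, 209, 216 and 209.7 CPM in scrambled replicates. Its groups were separate too, and it fell by 0.19 on the log2 scale (SE 0.0272, adjusted p = 5.54e-06).

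Tnfrsf10b, the mouse TRAIL death receptor, had 89.5, 87.3, 85.8 and 85.3 CPM in knockdown replicates 1 to 4, against 73.7, 79.7, 77.4 and 75.6 CPM in scrambled replicates 1 to 4. Every knockdown library was above every scrambled one. Tnfrsf10b rose by 0.18 on the log2 scale (SE 0.0345, adjusted p = 0.000142). Ei24, an endoplasmic reticulum protein linked to apoptosis and autophagy, was called higher by 0.10 on the log2 scale (85.3 ± 2.80 CPM in knockdown and 79.7 ± 1.24 CPM in scrambled cells, SD, n = 4, adjusted p = 0.0198), in groups that did not overlap. It shares 324 exon bases with an antisense transcript. Its adjusted p was 0.0763 without knockdown replicate 2 and 0.0628 without knockdown replicate 4.

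Aen, a nuclease of apoptotic DNA breakdown, was at 40.4 ± 1.45 CPM in knockdown and 40.3 ± 0.824 CPM in scrambled cells, with a fold interval of 0.940 to 1.07. Zmat3, an RNA-binding regulator of splicing downstream of p53, was at 34.3 ± 1.87 against 33.2 ± 1.32 CPM (interval 0.960 to 1.11). Pidd1, the scaffold of the caspase-2-activating PIDDosome, was at 10.3 ± 1.04 against 11.4 ± 0.323 CPM (interval 0.803 to 1.02). None of these 3 was called.

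Of 5 DNA repair and nucleotide genes 2 were called higher, by 1.15-fold and 1.13-fold, and none lower, where 23.8% of all tested genes were higher and 24.1% lower. Neither call held with DESeq2 (adjusted p = 0.0544 for Ercc5 and 0.0598 for Rrm2b). Ercc5, the XPG endonuclease of nucleotide excision repair, had 17.1, 17.2, 15.4 and 15.9 CPM in knockdown replicates and 13.7, 14.2, 14.7 and 14.6 CPM in scrambled replicates, and rose by 0.20 on the log2 scale (adjusted p = 0.0201). Rrm2b, the p53-induced subunit of ribonucleotide reductase, had 19.1, 18.2, 17.8 and 18.7 CPM in knockdown replicates and 15.6, 15.9, 16.7 and 16.9 CPM in scrambled replicates, and rose by 0.18 (adjusted p = 0.0218). Both genes had separate groups. The call of Ercc5 was lost without knockdown replicate 1 (adjusted p = 0.0615), knockdown replicate 2 (0.0657) or scrambled replicate 1 (0.0545). That of Rrm2b was lost without knockdown replicate 1 (0.0613), knockdown replicate 4 (0.0506) or scrambled replicate 1 (0.0580). Rrm2b shares 734 exon bases with an antisense transcript.

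The damage-recognition genes Xpc and Ddb2 and the translesion polymerase Polk were not called. Xpc was at 29.1 ± 1.51 CPM in knockdown and 27.3 ± 0.804 CPM in scrambled cells, and Polk at 19.3 ± 1.19 against 19.3 ± 1.85 CPM. Ddb2 had 7.27, 8.96, 9.09 and 9.30 CPM in knockdown replicates and 10.5, 8.005, 9.81 and 10.5 CPM in scrambled replicates (log2 fold change −0.17, adjusted p = 0.182). Knockdown replicate 1 and scrambled replicate 2 were the low libraries of their groups. Without scrambled replicate 2 the log2 fold change was −0.25 (adjusted p = 0.0268). Its counts are uncertain, since 652 of its exon bases overlap those of Acp2 on the other strand.

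Of the metabolic and translation genes, Tigar fell and the others were not called, where 24.1% of all tested genes were lower. Tigar, a phosphatase that lowers glycolytic flux, had 52.5, 53.7, 50.2 and 49.6 CPM in knockdown replicates 1 to 4, against 61.3, 59.8, 58.6 and 57.6 CPM in scrambled replicates 1 to 4. The groups were separate, and Tigar fell by 0.20 on the log2 scale (SE 0.0402, adjusted p = 0.000226). It shares 122 exon bases with an antisense transcript. Tigar lies on chromosome 6, as does Gadd45a, where the median of 556 tested genes was −0.11. Fdxr, the mitochondrial ferredoxin reductase, was at 12.9 ± 0.610 CPM in knockdown and 13.3 ± 0.485 CPM in scrambled cells. Rps27l was at 94.7 ± 4.26 against 98.8 ± 5.29 CPM, with a fold interval of 0.907 to 1.02. Reads shared with its close relative Rps27 would not be told apart.

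Of 26 upstream regulators of p53 outside the list 24 were tested, and 5 rose, 4 fell and 15 were not called. The share called was 37.5%, against 47.9% of all tested genes, and the median log2 fold change was 0.04. Cdkn2a, whose p19Arf product frees p53 from Mdm2 and whose p16 product inhibits Cdk4, was at 174 ± 3.77 CPM in knockdown and 172 ± 2.70 CPM in scrambled cells (adjusted p = 0.724). Hipk2, a kinase that phosphorylates p53 on the way to apoptosis, fell by 0.46 on the log2 scale (62.9 ± 3.31 CPM in knockdown and 86.5 ± 6.56 CPM in scrambled cells, adjusted p = 5.17e-08). Chek1, the checkpoint kinase below Atr, fell by 0.38 (38.3 ± 1.60 against 49.7 ± 1.10 CPM, adjusted p = 2.52e-07). Rfwd2, better known as Cop1 and a ubiquitin ligase of p53, rose by 0.24 (58.1 ± 1.79 against 49.2 ± 1.17 CPM, adjusted p = 3.11e-05). The p53 relative Trp73 had 0 counts in all libraries and Trp63 stood at 0.0255 CPM in knockdown and 0.0485 CPM in scrambled cells.

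Of a second list of 50 reported p53 targets 45 were tested, and 9 rose, 11 fell and 25 were not called. The share called was 44.4%, against 47.9% of all tested genes, and the median log2 fold change was −0.01. Pmaip1, which encodes Noxa, fell by 0.46 on the log2 scale (16.3 ± 0.566 CPM in knockdown and 22.3 ± 1.23 CPM in scrambled cells, adjusted p = 2.91e-06), and Bax, the pore-forming effector, fell by 0.14 (83.5 ± 3.05 against 92.0 ± 3.94 CPM, adjusted p = 0.00336). Bbc3, which encodes Puma, was at 5.72 ± 0.885 CPM in knockdown and 5.23 ± 0.370 CPM in scrambled cells (adjusted p = 0.427). Steap3, a metalloreductase, fell by 0.89 (8.74 ± 0.531 against 16.1 ± 0.546 CPM, adjusted p = 1.96e-09). Bid, the BH3 protein cut by caspase-8, fell by 0.43 (adjusted p = 2.57e-08), and Tgfa, an EGF-receptor ligand, by 0.34 (adjusted p = 7.30e-08). Bid shares 628 exon bases with Bcl2l13 on the opposite strand, and Bax 192 with a predicted gene on its own strand.

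Cell-cycle genes are set beside the list because Gtse1 and Ckap2 are themselves mitotic genes and because p53 and p21 are known to lower such genes when they are active. Of 20 cell-cycle genes 14 fell, none rose and 6 were not called (70% called, against 47.9% of all tested genes, median log2 fold change −0.18). Mybl2, a transcription factor of dividing cells, fell by 0.51 (58.3 ± 0.730 CPM in knockdown and 83.1 ± 3.25 CPM in scrambled cells, adjusted p = 1.24e-10). Foxm1, the mitotic transcription factor, fell by 0.33 (282 ± 5.11 against 354 ± 9.82 CPM, adjusted p = 3.40e-10), and Ccna2, cyclin A2, by 0.23 (354 ± 4.10 against 416.0 ± 11.5 CPM, adjusted p = 4.43e-08). Cdkn1a and these cell-cycle genes were both lower in the knockdown line, and their relation was not tested.

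**Figure D4:**
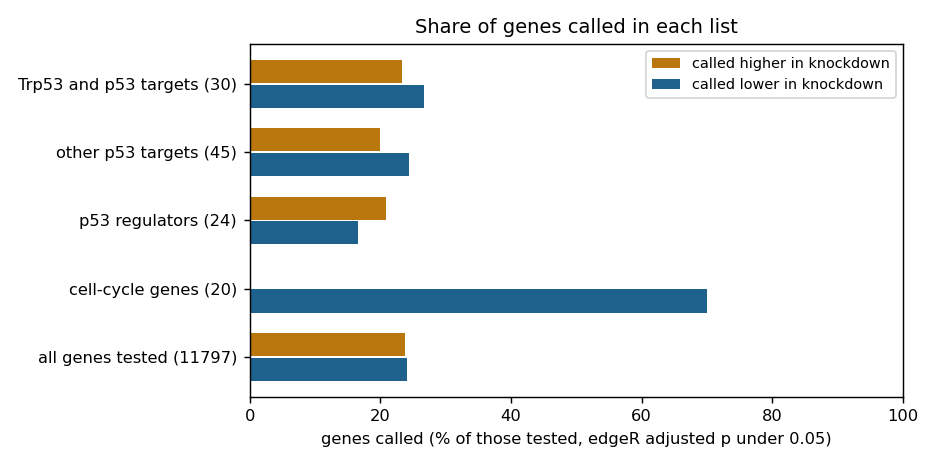
Share of tested genes called higher (upper bar) and lower (lower bar) in knockdown cells in each list, with the number tested in brackets, on an axis from 0 to 100%. Trp53 and its targets (23.3% higher, 26.7% lower) lie near all tested genes (23.8% and 24.1%), and the cell-cycle list has 70% lower and none higher.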

How the data were processed

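The authors deposited raw read counts per gene symbol, 1 column per library, for 4 knockdown and 4 scrambled libraries of KPCY cells. Per the labels' protocols, RNA with an integrity number of at least 7 went into a stranded mRNA kit and was read as pairs of 59 bases. Build mm10 and the tools STAR, Bowtie, R 4.2.1, DESeq2 1.36.0 and bcl2fastq 2.20 are named, without roles, in the submitters' processing notes. The sources used here name no counting tool or strand setting, so reads of overlapping antisense genes cannot be told apart. Of the 32 list members 7 share exon bases with another gene.

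The test was that of edgeR 4.0.16 in R 4.3.3 (low counts removed by filterByExpr, minimum count 10 and total 15, TMM, glmQLFit and glmQLFTest on group, Benjamini-Hochberg adjusted p under 0.05 over 11797 genes), tested on simulated counts. SE and 95% intervals come from that fit. Alternatives were other scalings and filters, a replicate block, DESeq2 1.42.0, limma-voom (limma 3.58.1), stricter thresholds and leaving out each library. Same-numbered libraries did not deviate together (correlations −0.03 to 0.02), so the numbers were not treated as pairs. Symbols, exon lengths and 3′ UTRs came from GENCODE M21 (GRCm38), with 23350 symbols matched by current and 650 by older names. Members and lists were chosen with earlier results of these data known. All members were named. From the regulators, other targets and cell-cycle genes, the 3 called genes with the smallest adjusted p were named, plus Bax, Bbc3, Pmaip1 and Cdkn2a. Trp63, Trp73 and the single cell type markers were named outside this rule.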

Additional observations from a re-analysis of the deposited data

Results flagged for a closer look

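Among 60 sets of 4 libraries, 30 genes in each of the lines, 2 held a library far from the other three by Dixon's ratio, where chance alone flags about 1 set in 20. Trp53inp1 stood at 11.8 CPM in scrambled replicate 4, while the other scrambled libraries were at 8.59 to 9.13 CPM. Ddb2 stood at 7.27 CPM in knockdown replicate 1, while the other knockdown libraries were at 8.96 to 9.30 CPM.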

How the results depend on the processing

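Trp53 kept its direction and its call under 15 alternatives at the same threshold (log2 fold change −0.18 to −0.14). Of the 15 called members 9 kept the call under all 15, and 6 lost it under at least 1 (Mdm4, Sesn2, Ei24, Rrm2b, Gtse1 and Ercc5), while Ddb2 and Sertad1 gained one. No called member changed direction. In a test against a fold of 1.2, 1107 genes were called in all, with 1 list member higher and 1 lower, 0 and 4 of the other p53 targets, 0 and 2 of the regulators and 3 cell-cycle genes lower, and Trp53 (−0.17) was not called (adjusted p = 1). At an adjusted p under 0.01, 3 members were higher and 5 lower, and 5 other targets were higher and 10 lower. Of all 11797 tested genes, 2088 were higher and 2162 lower at that threshold. DESeq2 called 4 members higher and 7 lower. Of the 13223 genes it tested, 2507 were higher and 2562 lower. With library totals in place of TMM, 8 regulators were higher, the median of the list was 0.000402 (−0.03 with TMM), that of all genes 0.03, and 58.4% of called genes were higher, against 49.7% with TMM. Leaving out 1 library gave 4 to 7 members higher and 6 to 8 lower. Over all tested genes it gave 2532 to 3002 higher and 2575 to 3002 lower. With the replicate number as a block, which had no support as a pairing, 5533 genes and 13 members were called, and Sesn2 (adjusted p = 0.0574) and Gtse1 (0.0555) lost their calls. The causes of these changes were not tested. Cdkn1a and Sfn rest on fewer than 200 counts per library, which limits their precision.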
